A study of Mus musculus with 185 samples.

Results

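The superior and inferior colliculus form the roof of the midbrain. The superior colliculus receives input from the retina and the cerebral cortex and is known for orienting the eyes and head. The inferior colliculus is the main midbrain relay of hearing. Pax7, Tfap2b and Tfap2d encode transcription factors that mark neurons of this roof, Tfap2b and Tfap2d being members of the AP-2 family.

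The data described here are 28 columns of a bulk RNA-seq count table, 2 of the 5 columns of each of 14 chow-fed mice, in a table of 37 mice. They were chosen by their own counts: among the columns of a mouse with at least 1000000 counts, the 2 with the highest mean log2(CPM + 1) of Pax7, Tfap2b and Tfap2d were kept if both stood at least 0.5 above the third. CPM is the count of a gene scaled to a column total of 1000000. The column with more Tfap2d (Tfap2d-high) was taken as inferior colliculus and the other (Tfap2d-low) as superior colliculus. The 3 marker genes were left out of the gene comparison, but all other genes come from the same columns, so differences between the 2 sides describe columns selected on Tfap2d and are not independent evidence of a regional difference. Each heading of the table names 1 sample of a mouse and stands on all 5 columns of that mouse. It gives the mouse and not the brain area, and the labels of brain areas were not tied to columns. In the 16 h study the mice follow each other along the columns as in the list of labelled samples. This order was not used to assign brain areas, and whether it gives them was not tested.

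All mice were young adult C57BL/6J males with no transgene, and these 14 stayed on chow throughout. In the 16 h study 6 mice, housed in pairs, gave both colliculi from the left hemisphere in 3 mice and from the right in 3. In the 24 h study 8 mice, housed singly, gave both from the left. The rule left out a further chow mouse of the 24 h study, whose tube the labels tie to a colliculus of another mouse. The table also holds 6 HFD mice and 6 fasted mice of 16 h, and 10 fasted mice of 24 h. With the same rule, and without 2 fasted mice of 24 h with handling notes or unclear tubes, 18 of these, 6 fasted and 4 HFD mice of 16 h and 8 fasted mice of 24 h, gave a second set of pairs of columns. Each column is a dissected piece of tissue, so fewer cells of a type and less RNA per cell cannot be told apart.

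Tfap2d (chromosome 1, 19173246 to 19236570, plus strand, GRCm39) was lowest at 9.68, had a median of 48.8 and was highest at 57.9 CPM in the 14 Tfap2d-high columns, against 0.179, 11.0 and 41.0 CPM in the Tfap2d-low columns. Tfap2b, its neighbour on chromosome 1 (19279138 to 19309069), ran the other way, with a median of 11.7 CPM in Tfap2d-high and 46.9 CPM in Tfap2d-low columns. Pax7 (chromosome 4, 139464373 to 139560839) had medians of 4.37 and 17.5 CPM. Tfap2b was lower in the Tfap2d-high column of 12 of 14 mice and Pax7 in 11 of 14. In 38 other columns of these mice the medians were 0.112 CPM for Tfap2d, 0.609 CPM for Tfap2b and 0.123 CPM for Pax7, the separation that the rule asks for. The smallest gaps to the third column were 0.638 (mouse 1451) and 0.739 (mouse 1422). The 2 mice outside the rule, both on HFD, had gaps of 0.0229 and 0.0442.

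**Figure D1:**
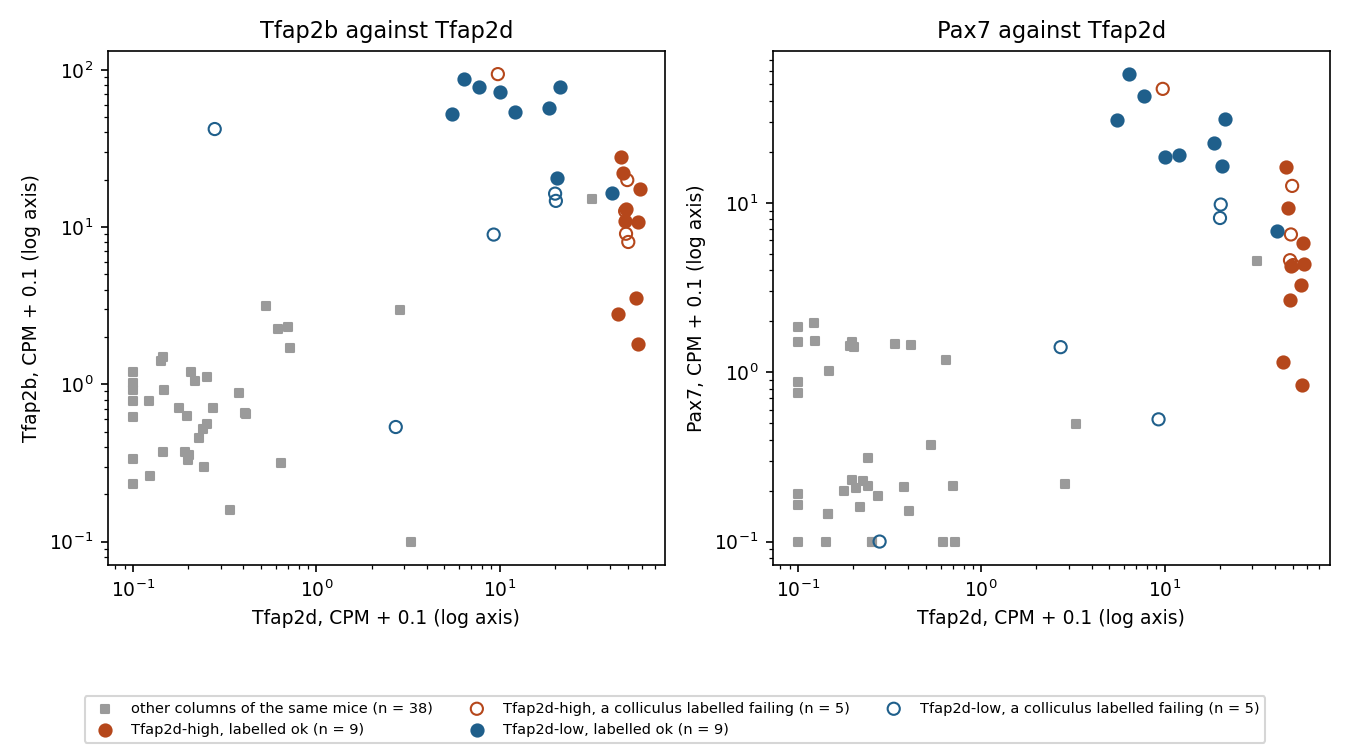
Tfap2b (left) and Pax7 (right) against Tfap2d in CPM plus 0.1 on log axes, with 1 point per column of the 14 chow mice. Filled circles are mice with both colliculi labelled ok (n = 9) and open circles those with a colliculus labelled failing (n = 5). Filled Tfap2d-high points sit at 44.3 to 57.9 CPM of Tfap2d, and filled Tfap2d-low points at 5.41 to 41.0 CPM with more Tfap2b and Pax7 than their partners.

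The pattern was not the same in every mouse. In mouse 1 the sides rest on 9.68 against 9.18 CPM of Tfap2d, and Tfap2b was 93.7 CPM in the Tfap2d-high column and 8.86 CPM in the other, the reverse of most mice. In mouse 6 the Tfap2d-low column held 0 CPM of Pax7 and 41.9 CPM of Tfap2b. In mouse 1422 the Tfap2d-low column held 0.435 CPM of Tfap2b and 1.31 CPM of Pax7. A column of this mouse with 350968 counts, which the depth limit removed, held 17.1 and 8.55 CPM, few reads at this depth. The mitochondrial share of the removed column was 43.3%. In mice 1442 and 1452 the Tfap2d-low columns had mitochondrial shares of 40.0% and 33.8% of counts. In mouse 3 both sides were rich in Tfap2d, at 48.4 and 41.0 CPM, and in mouse 1451 the third column reached a marker score of 3.83.

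The authors' quality labels mark 1 colliculus as failing in mice 1, 6, 1422, 1442 and 1452. In mice 1 and 6 it was marked from the authors' principal component analysis of expression. In mice 1422, 1442 and 1452 it failed alignment, had no detectable RNA and was on a separate SP flowcell from its partner. The same flowcell held all colliculi of the 24 h study labelled as failing alignment. In such mice a difference between the colliculi cannot be told apart from one between flowcells. The other 9 chow mice, 4 of 16 h and 5 of 24 h, had both colliculi labelled ok, and because of these labels counts of genes are given in the 14 mice and again in these 9. In 9 of 9 Tfap2b and Pax7, which the rule used, were lower in the Tfap2d-high column. Among 9 mice of the 24 h study, chow or fasted, in which exactly 1 colliculus is labelled as failing alignment, 8 (all but mouse 1422) had the higher mitochondrial share on the side opposite to the label, at 11.7 to 40.0% against 7.06 to 11.6% in the partner column. The label was inferior colliculus in 4 of these 8 mice, where the Tfap2d-low column had the higher share. It was superior colliculus in 4, where the Tfap2d-high column had it. In mouse 1422 the share was 12.7% in the Tfap2d-low and 8.55% in the Tfap2d-high column. The column of this mouse that the depth limit removed had 43.3%, and which of its columns is the labelled colliculus was not tested. In the 16 h study, of 4 mice with 1 colliculus labelled as failing by either criterion, mice 10 and 12 had the higher share on the labelled side (5.72 against 3.25% and 4.91 against 3.34%) and mice 1 and 6 on the other side (4.38 against 3.79% and 3.95 against 2.31%). If the column with the higher share is the failing library, the 24 h values go against the names inferior and superior for the rule's sides. That it is the failing library was not tested, and the columns are called Tfap2d-high and Tfap2d-low below.

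Counts per column ran from 3990786 to 30001195 in Tfap2d-high and from 4596549 to 65973281 in Tfap2d-low columns. The mitochondrial share was 6.14 ± 2.32% in Tfap2d-high and 10.9 ± 11.5% in Tfap2d-low columns (SD, n = 14 mice), lower in the Tfap2d-high column of 12 of 14 mice (adjusted p = 0.0601, two-sided exact sign-flip permutation test over 3 measures). The shares in the 9 mice were 5.94 ± 2.33% and 6.57 ± 2.66% (SD, n = 9, adjusted p = 0.0586, same exact test). Counts per column differed by -0.86 ± 1.07 on the log2 scale in the 9 mice (SD, n = 9, adjusted p = 0.0586, same exact test), being lower on the Tfap2d-high side in 8 of them. A draw of 500000 counts per column would be expected to hit 18627 ± 564 genes in Tfap2d-high and 18869 ± 646 in Tfap2d-low columns of the 9 mice (SD, n = 9). By the labels alone, RNA concentration was 27.7 ± 28.7 ng/µl in libraries labelled inferior and 32.4 ± 20.4 ng/µl in those labelled superior colliculus (SD, n = 14 mice, p = 0.633, two-sided exact sign-flip permutation test).

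**Figure D2:**
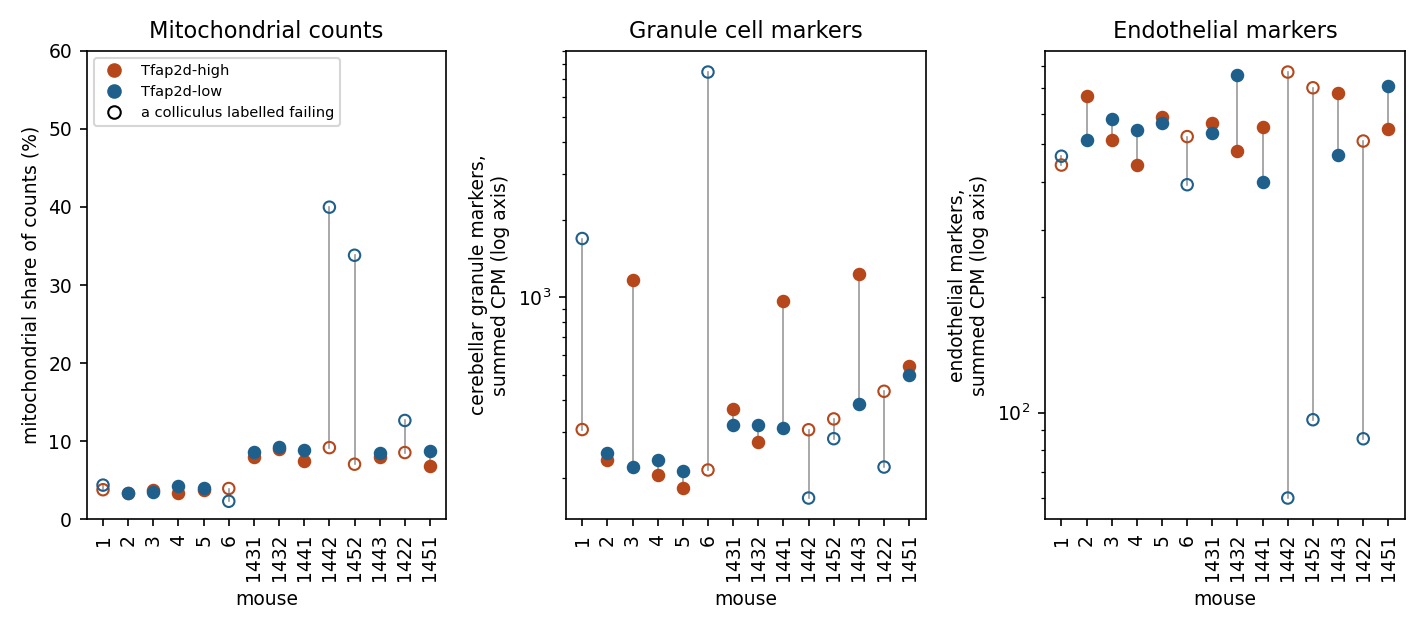
Mitochondrial share of counts (left, percent), summed CPM of 11 cerebellar granule cell markers (middle, log axis) and of 18 endothelial markers (right, log axis) in both columns of each chow mouse. Open circles are mice with a colliculus labelled failing. The Tfap2d-low columns of mice 1442 and 1452 reach 40.0% and 33.8%, that of mouse 6 holds 7473 CPM of granule cell markers, and those of mice 1442, 1452 and 1422 hold 59.9, 95.9 and 85.5 CPM of endothelial markers.

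Genes were compared between the sides in pairs by mouse with edgeR's quasi-likelihood test. In 14 mice 332 of 25498 genes were called at an adjusted p under 0.05, with 0.702% of the genes tested higher in Tfap2d-high columns and 0.600% lower. At least 2-fold higher were 0.396%, and at least 2-fold lower 0.412%. In the 9 mice 1020 of 24411 genes were called higher (4.18%) and 1092 lower (4.47%), with 245 at least 2-fold higher (1.00%) and 332 at least 2-fold lower (1.36%). The fits share 300 called genes, which are 90.4% of the calls in 14 mice and 14.2% of those in 9, each with the same sign in both. Without mouse 1 the 14-mouse counts were 393 higher and 310 lower, without mouse 6 they were 313 and 331, without mouse 4 they were 58 and 60, and without mouse 2 they were 76 and 49. Leaving out any mouse other than 3 and 1432 moved at least 1 of the 4 counts by over 1.5 times.

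Transcription factors of the midbrain differed between the sides, with Foxp2, Barhl1, Irx2 and Tcf7l2 higher in Tfap2d-high columns. Foxp2, a forkhead factor known for its role in vocal and motor circuits (chromosome 6, 14901287 to 15441976), was lowest at 98.3, had a median of 186.3 and was highest at 206 CPM in Tfap2d-high columns, against 16.3, 70.05 and 136.3 CPM in Tfap2d-low columns. It was higher in the Tfap2d-high column of 14 of 14 mice (log2 fold change 1.40 ± 0.21, SE, edgeR adjusted p = 0.00548). In the 9 mice the sides did not overlap, at 142 to 206 CPM and 68.1 to 136.3 CPM. How many of all genes tested lack overlap was not computed, here or for the genes below. The mean difference of Foxp2 in log2(CPM + 0.5) was 1.07 ± 0.37 in the 4 mice of 16 h and 1.07 ± 0.41 in the 5 mice of 24 h (SD).

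Barhl1, a homeobox factor of the developing midbrain, cerebellum and hearing system (chromosome 2, 28797691 to 28806680), was at 17.0, 38.8 and 50.4 CPM in Tfap2d-high and at 1.74, 15.7 and 33.0 CPM in Tfap2d-low columns (lowest, median, highest). Its log2 fold change was 1.28 ± 0.21 (SE, edgeR adjusted p = 0.00845, higher in 14 of 14 mice). Irx2, an Iroquois homeobox factor, differed by 1.16 ± 0.26 (edgeR adjusted p = 0.0335, 14 of 14 mice). Tcf7l2, an effector of Wnt signalling known from thalamus and midbrain neurons (chromosome 19, 55730188 to 55922091), had medians of 551 and 114.4 CPM and was higher in 13 of 14 mice (log2 fold change 1.81 ± 0.38, edgeR adjusted p = 0.0269). Its levels did not overlap in the 9 mice, at 475 to 673 CPM against 86.02 to 402 CPM.

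Of 42 listed midbrain and tectal transcription factors, 41 were tested in 14 mice, of which 6 were higher and 0 lower in edgeR. Of 40 tested in the 9 mice 11 were higher and 9 lower, with a median log2 fold change of -0.19 beside -8.78e-05 over all genes. Over all genes tested 4.18% were higher and 4.47% lower in the 9 mice, and 0.702% and 0.600% in 14 (edgeR). En1, an engrailed factor that sets the border of midbrain and hindbrain, had medians of 32.3 and 11.4 CPM in the 9 mice (log2 fold change 2.15 ± 0.53, edgeR adjusted p = 0.0245, higher in 8 of 9). In 14 mice its value was 2.00 ± 0.59 (edgeR adjusted p = 0.113). Pou4f1, a POU factor of sensory and tectal neurons, was lower in Tfap2d-high columns of the 9 mice, at medians of 4.84 and 30.9 CPM (log2 fold change -2.18 ± 0.32, edgeR adjusted p = 0.00154). In 14 mice Pou4f1 was at -1.33 ± 0.74 (edgeR adjusted p = 0.368). Lef1, another nuclear partner of Wnt signalling, was at -1.67 ± 0.27 in the 9 mice (edgeR adjusted p = 0.00234), opposite in sign to Tcf7l2.

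Genes were named by rule as the 15 largest called differences in each direction, among genes that moved the same way in every mouse and averaged 1 or more in log2 CPM. Over 14 mice 39 genes qualified as higher and 5 as lower. These 14 include mice 1, 6, 1422, 1442 and 1452, whose columns are described above as unlike those of most mice. No named gene was free of overlap between the sides over 14 mice. Igfbpl1, a secreted binding protein of the insulin-like growth factor family (chromosome 4, 45809254 to 45826923), led the higher genes with medians of 5.39 and 1.04 CPM (log2 fold change 2.19 ± 0.41, edgeR adjusted p = 0.0162). Sema3f, a secreted semaphorin that repels axons (chromosome 9, 107558698 to 107587674), had medians of 117.02 and 44.6 CPM (1.68 ± 0.24, edgeR adjusted p = 0.00548). Nxph4, a neurexophilin that binds neurexins, had medians of 41.0 and 10.1 CPM (1.56 ± 0.28, edgeR adjusted p = 0.0126), and in the 9 mice its sides did not overlap. Drd2, the inhibitory dopamine D2 receptor, had medians of 39.7 and 12.7 CPM (edgeR adjusted p = 0.0235, higher in 14 of 14 mice). In mouse 6 Drd2 was at 43.5 against 0.834 CPM. Scg2, a granin of dense-core vesicles, had medians of 445 and 196 CPM (1.19 ± 0.21, edgeR adjusted p = 0.0128) and did not overlap in the 9 mice. Tspear, Slco5a1, Syndig1l, P2ry1, Mgmt, Cntn4 and Fzd8 differed by 1.08 to 1.37 on the log2 scale.

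The 5 genes lower in the Tfap2d-high column of every mouse were Kcng3, C1ql3, Pter, Nxph3 and Satb1. Kcng3, a modifier subunit of potassium channels, had medians of 1.28 and 3.86 CPM (log2 fold change -1.64 ± 0.25, edgeR adjusted p = 0.00548). C1ql3, a secreted C1q-like synaptic protein, had medians of 1.59 and 4.71 CPM (-1.62 ± 0.24, edgeR adjusted p = 0.00548). Pter, whose gene overlaps C1ql3 on chromosome 2 so that reads from the overlap may not be told apart, was at -1.51 ± 0.22. Nxph3, a neurexophilin like Nxph4 but with the opposite sign, was at -1.20 ± 0.22. Satb1, a chromatin organiser, had the smallest difference, -0.74 ± 0.14. The levels of these 5 overlapped between the sides also in the 9 mice. Some of the highest Tfap2d-low values were in mice whose columns are described above as unlike those of most mice. C1ql3 reached 25.1 and Pter 40.7 CPM in mouse 1, Nxph3 19.6 CPM in mouse 6 and Satb1 123.1 CPM in mouse 1422.

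**Figure D3:**
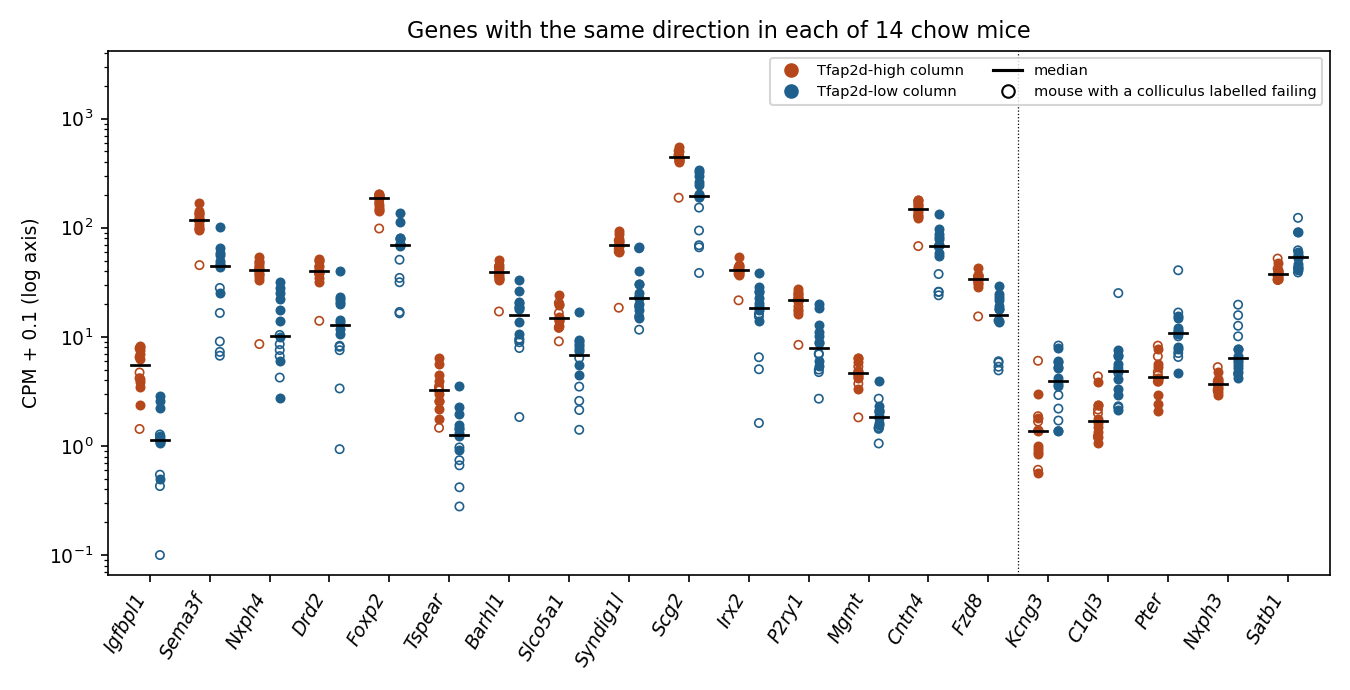
CPM plus 0.1 on a log axis of the 20 genes named in 14 chow mice, 1 point per column, with black lines at the medians. Open circles are mice with a colliculus labelled failing. The 15 genes left of the dotted line are higher and the 5 on the right lower in the Tfap2d-high column of every mouse.

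A total of 353 genes qualified as higher and 421 as lower in the 9 mice, and the 15 largest of each were taken. This set was added after the values had been seen. Of the 15 higher genes, 6 had sides that did not overlap, namely Ndst4, Fst, Tpbg, Npy, Serpina9 and Zbtb7c. The share of all genes tested without overlap was not computed. Choosing the largest called differences of the same sign in every mouse favours sides without overlap. Ndst4, an enzyme that sulphates heparan chains (chromosome 3, 125197722 to 125522549), ran from 169 to 296 CPM in Tfap2d-high and from 14.1 to 131.9 CPM in Tfap2d-low columns (log2 fold change 2.62 ± 0.35, edgeR adjusted p = 0.000891). Mouse 1 was the exception among the 14, with 16.4 CPM of Ndst4 in the Tfap2d-high and 69.7 CPM in the Tfap2d-low column. Tpbg, a membrane antagonist of Wnt signalling, ran from 85.1 to 142 CPM against 6.41 to 71.5 CPM (2.49 ± 0.39, edgeR adjusted p = 0.00196). Fst, follistatin, which binds activins, had medians of 4.03 and 0.718 CPM (2.52 ± 0.35, edgeR adjusted p = 0.00108). Ankrd63 had the largest difference among the named genes that were higher, with medians of 27.4 and 3.35 CPM (2.94 ± 0.47, edgeR adjusted p = 0.00228). Mcub, an inhibitory subunit of the mitochondrial calcium channel, had medians of 7.22 and 0.906 CPM (2.78 ± 0.36, edgeR adjusted p = 0.000746).

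Of the 15 lower genes, chosen in the same way, Tafa4, Pmfbp1, Bnc2 and Npas1 had sides that did not overlap in the 9 mice. The share over all genes tested was not computed. Npas1, a bHLH-PAS factor of interneurons (chromosome 7, 16188679 to 16211653), ran from 1.99 to 4.74 CPM in Tfap2d-high and from 5.88 to 19.1 CPM in Tfap2d-low columns (-2.02 ± 0.21, edgeR adjusted p = 0.000332). Bnc2, a zinc-finger protein (chromosome 4, 84193332 to 84593512), ran from 4.16 to 23.0 CPM against 24.7 to 67.7 CPM (-2.08 ± 0.27, edgeR adjusted p = 0.000814). Cabp7, a calcium-binding protein (chromosome 11, 4686892 to 4697200), had medians of 14.1 and 66.1 CPM (-2.05 ± 0.26, edgeR adjusted p = 0.000696), and was called in 14 mice too (-2.02 ± 0.31, edgeR adjusted p = 0.00548). Kcnj5, a potassium channel opened by G proteins, was at -2.43 ± 0.31, and Chrnb3, a nicotinic receptor subunit, at -2.09 ± 0.47.

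**Figure D4:**
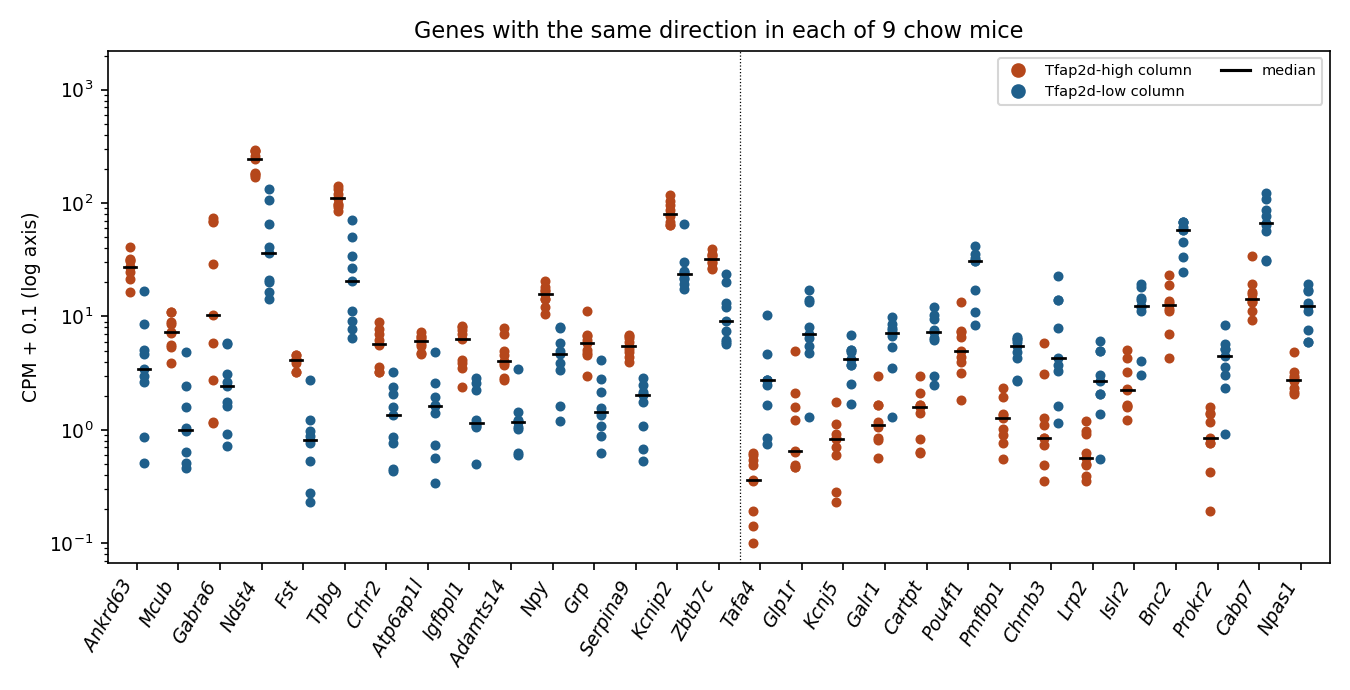
CPM plus 0.1 on a log axis of 29 genes named in the 9 chow mice with both colliculi labelled ok, 1 point per column, with black lines at the medians. The 15 genes left of the dotted line are higher and the 14 on the right lower in the Tfap2d-high column of every one of the 9 mice. Ndst4, Tpbg, Npas1 and Bnc2 are among the 10 genes without overlap, a count whose share over all genes tested was not computed.

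Neuropeptides and their receptors differed in both directions. Of 25 genes tested from a list of precursors, 10 were higher and 4 lower in Tfap2d-high columns of the 9 mice (edgeR). This list also holds cerebellins and growth factors, which are not neuropeptide precursors. Over all genes tested 4.18% were higher and 4.47% lower in the 9 mice, and 0.702% and 0.600% in 14. Npy, neuropeptide Y, ran from 10.4 to 20.6 CPM in Tfap2d-high and from 1.09 to 7.99 CPM in Tfap2d-low columns (log2 fold change 1.97 ± 0.26, edgeR adjusted p = 0.000893). Grp, gastrin-releasing peptide, was at 1.95 ± 0.30 (edgeR adjusted p = 0.00182). Nts, neurotensin, had medians of 0.336 and 1.62 CPM (-2.41 ± 0.34, edgeR adjusted p = 0.00114). Cartpt, the CART peptide precursor, ran from 0.520 to 2.90 CPM in Tfap2d-high and from 2.38 to 11.9 CPM in Tfap2d-low columns, with overlap (-2.24 ± 0.26, edgeR adjusted p = 0.00053). In 14 mice 2 of 26 genes of this list were called, Nts (-2.21 ± 0.49, edgeR adjusted p = 0.0356) and Tac2 (-2.28 ± 0.54, edgeR adjusted p = 0.0467), both lower.

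Among 37 neuropeptide receptors 14 were lower and 7 higher in the 9 mice, and 4 were lower and 3 higher in 14 (edgeR). The shares over all genes tested were 4.47% lower and 4.18% higher in the 9 mice, and 0.600% and 0.702% in 14. The median log2 fold change of the 37 was -0.25 in the 9 mice and -0.12 in 14. Glp1r, the receptor of glucagon-like peptide 1 (chromosome 17, 31120525 to 31159765), was at 0.371, 0.548 and 4.83 CPM in Tfap2d-high and at 1.20, 6.95 and 16.9 CPM in Tfap2d-low columns of the 9 mice (lowest, median, highest). Its log2 fold change was -2.77 ± 0.39 (edgeR adjusted p = 0.00117) and in 14 mice -2.10 ± 0.50 (edgeR adjusted p = 0.0503). Npy2r, a receptor of neuropeptide Y (chromosome 3, 82444312 to 82455409), had medians of 0.730 and 3.42 CPM in 14 mice (-2.27 ± 0.32, edgeR adjusted p = 0.00483), lower on the Tfap2d-high side in 13 of 14. Galr1, a galanin receptor, was at -1.86 ± 0.44 in 14 mice (edgeR adjusted p = 0.0495) and Ntsr1, a neurotensin receptor, at -1.72 ± 0.33 (edgeR adjusted p = 0.0195). Crhr2, the type 2 receptor of corticotropin-releasing peptides, went the other way, with medians of 5.84 and 1.01 CPM (2.19 ± 0.47, edgeR adjusted p = 0.0319).

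Axon guidance genes were split as well. Over all genes tested 4.18% were higher and 4.47% lower in the 9 mice, and 0.702% and 0.600% in 14 (edgeR). Of 31 slit, netrin and semaphorin genes 8 were higher and 8 lower in the 9 mice, and 4 were higher and 0 lower in 14 (edgeR). The 4 were Sema3f, Plxna1, Unc5d and Sema6a. Plxna1, a semaphorin co-receptor, was at 1.10 ± 0.22 in 14 mice (edgeR adjusted p = 0.0228) and Unc5d, a netrin receptor, at 0.96 ± 0.18 (edgeR adjusted p = 0.0166). Nrp2, a receptor of semaphorin 3F, was lower in the 9 mice, at medians of 18.0 and 64.6 CPM (-1.52 ± 0.27, edgeR adjusted p = 0.00461). Ephrins and Eph receptors, which map retinal axons onto the superior colliculus, had 1 higher and 2 lower of 22 in 14 mice and 1 higher and 4 lower in the 9 (edgeR). Epha4 (chromosome 1, 77343822 to 77492816) had medians of 45.5 and 85.02 CPM in 14 mice (-0.99 ± 0.17, edgeR adjusted p = 0.00948). Ephb1 had medians of 161.4 and 101.7 CPM and was higher in 14 of 14 mice (0.71 ± 0.12, edgeR adjusted p = 0.00855).

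Transmitter genes were called in both directions in the 9 mice, beside 4.18% higher and 4.47% lower of all genes tested. In 14 mice the shares over all genes were 0.702% higher and 0.600% lower (edgeR). Of 22 GABA genes 2 were higher in 14 mice (edgeR), among them the receptor subunit Gabrb2 (1.07 ± 0.21, adjusted p = 0.0204), and 4 were higher and 5 lower in the 9. Of 11 glycine genes 1 was higher in 14 mice, the receptor subunit Glra4 (1.77 ± 0.30, edgeR adjusted p = 0.00948), and 3 were higher and 2 lower in the 9. Of 28 glutamate genes 2 were higher and 1 lower in 14 mice, and 6 were higher and 4 lower in the 9 (edgeR). Gria2, an AMPA receptor subunit, was at 0.68 ± 0.16 and Grik4, a kainate receptor subunit, at -0.62 ± 0.10 in 14 mice. Of 14 acetylcholine receptor genes 1 was higher in 14 mice, Chrnb4 (2.02 ± 0.42, edgeR adjusted p = 0.0251), and 3 were higher and 2 lower in the 9. Of 23 monoamine receptors tested in 14 mice Drd2 and Adra2a were higher (edgeR), and of 22 in the 9 mice 3 were higher and 4 lower. Drd5, a dopamine receptor that couples in the opposite way to Drd2, was lower in the 9 mice (-1.52 ± 0.20, edgeR adjusted p = 0.000893).

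Some genes tied to fast firing or calcium binding were called in the 9 mice. Of 22 fast-spiking channel and axon genes 3 were higher and 1 lower in the 9 mice, and of 15 calcium-binding proteins 5 were higher and 1 lower, beside 4.18% higher and 4.47% lower of all genes tested (edgeR). In 14 mice 0 of either list were called by edgeR, beside 0.702% higher and 0.600% lower of all genes tested. The sets of mice were not tested against each other. Pvalb, parvalbumin, a calcium buffer of fast-firing neurons, had medians of 94.6 and 25.9 CPM in the 9 mice (log2 fold change 1.43 ± 0.38, edgeR adjusted p = 0.0364), and its value in 14 mice was 0.47 ± 0.49 (edgeR adjusted p = 0.612). Kcna6, a potassium channel, did not overlap in the 9 mice, at 49.7 to 67.3 CPM against 75.8 to 111.8 CPM (-0.56 ± 0.05, edgeR adjusted p = 0.000204). Of 16 perineuronal net genes Adamts5, an enzyme that cuts the proteoglycans of these nets, was higher in 14 mice (1.07 ± 0.17, edgeR adjusted p = 0.00681), and 2 were higher and 1 lower in the 9.

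Energy metabolism genes are given beside all genes tested, of which 0.702% were higher and 0.600% lower in 14 mice. In the 9 mice these shares were 4.18% and 4.47% (edgeR). With shares this low in 14 mice, 0 calls in lists of this size do not set these genes apart. In edgeR 0 of 36 nuclear respiratory chain genes and 0 of 22 glycolysis genes were called in 14 mice, and 1 (Ndufb8, lower) and 0 in the 9. Of messages from the mitochondrial genome 0 of 10 were called in 14 mice and 0 of 8 in the 9.

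**Figure D5:**
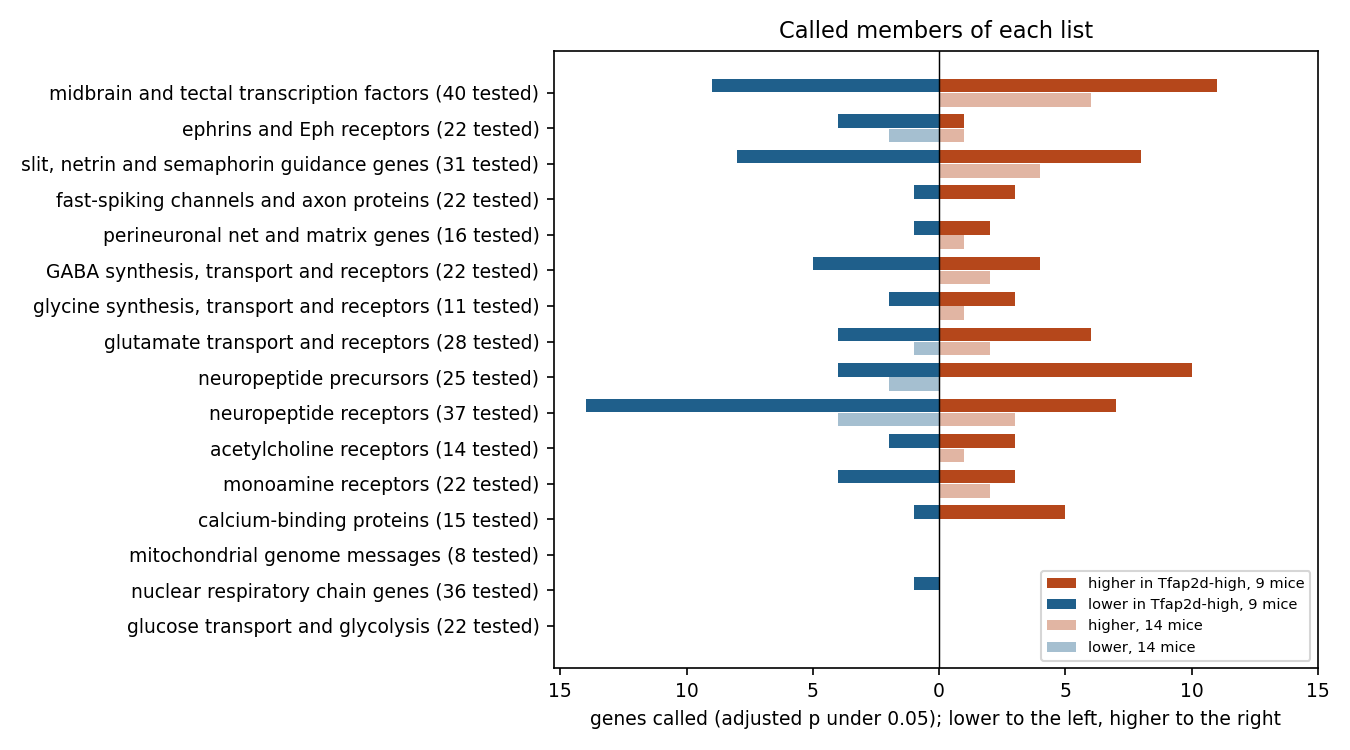
Called members (edgeR, adjusted p under 0.05) of 16 gene lists, lower in Tfap2d-high columns to the left and higher to the right, in the 9 mice with both colliculi labelled ok (dark bars) and in 14 mice (pale bars). Neuropeptide receptors have 14 lower and 7 higher of 37 in the 9 mice, and the 2 lists of glycolysis and mitochondrial messages have none. Over all genes tested 4.47% were lower and 4.18% higher in the 9 mice, and 0.600% and 0.702% in 14.

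Markers of other tissue were measured beside these values. Their calls stand beside 4.18% higher and 4.47% lower of all genes tested in the 9 mice (edgeR). The summed level of 11 cerebellar granule cell markers ran from 182.5 to 1233 CPM in Tfap2d-high and from 166.8 to 7473 CPM in Tfap2d-low columns of 14 mice. Over the 9 mice it ran from 182.5 to 1233 against 212 to 501 CPM, with 4 of the 11 markers called higher on the Tfap2d-high side. Gabra6, the defining granule cell subunit of the GABA receptor, was at 68.2, 69.9 and 73.7 CPM in the Tfap2d-high columns of mice 3, 1441 and 1443 and at 448.9 and 117.7 CPM in the Tfap2d-low columns of mice 6 and 1. Of 10 Purkinje cell markers 4 were called higher in the 9 mice, with sums of 605 to 2300 CPM against 578 to 801 CPM. No marker of either list was at 0 in all columns. Barhl1 is also on the granule cell list. The part of cerebellar tissue in the differences of Gabra6, Barhl1, En1 and the other genes of these lists was not tested.

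Of 8 serotonin and noradrenaline markers 5 were called lower in Tfap2d-high columns of the 9 mice, with sums of 19.2 to 26.4 CPM against 21.7 to 322 CPM, the highest in mouse 2. Over all genes tested 4.47% were called lower and 4.18% higher in the 9 mice, and 0.600% and 0.702% in 14 (edgeR). Slc6a4, the serotonin transporter, had medians of 0.133 and 0.462 CPM and reached 85.6 CPM. Of 6 dopamine neuron markers tested 2 were called lower, of 18 oligodendrocyte markers 2, of 8 oligodendrocyte progenitor markers 4 and of 15 astrocyte markers 4. Endothelial, pericyte, microglial, pineal and meningeal markers gave 0 calls by edgeR in either set of mice. Microglial markers summed to less in the Tfap2d-high column of 9 of 9 mice, at 153.1 to 209.7 against 188 to 243 CPM. Of 12 cortex and hippocampus markers 3 were higher (Nrgn, Mef2c and Camk2a) and 1 lower (Emx2) in the 9. In 14 mice 2 were lower, Neurod6 and Emx2. The median log2 fold change of the 12 was -0.31 in the 9 mice and -1.13 in 14. Against this median, their sum was higher in the Tfap2d-high column of 11 of 14 and 8 of 9 mice, with medians of 1189.7 and 671 CPM in the 9. Mouse 1 ran the other way, with 473 CPM in its Tfap2d-high and 3870 CPM in its Tfap2d-low column. Choroid plexus markers gave 1 call, Sostdc1, which was lower in both sets of mice. Of 8 thalamic markers 2 were higher and 1 lower in the 9, Tcf7l2 and Lef1 being on this list too. The median log2 fold change of the 8 was -0.31 in the 9 mice and -0.08 in 14. Against this median, their sum was higher in the Tfap2d-high column of 13 of 14 and 8 of 9 mice, with medians of 1485 and 937 CPM in the 9. Of 12 immediate early genes Fosb, Egr1 and Fos were higher in the 9 mice. Of 4 cholinergic markers tested in the 9 mice 0 were called by edgeR, and in 14 mice 1 of 5 was lower. None of the 9 Hox genes of hindbrain and spinal cord passed the filter, and their sum reached 25.7 CPM in the Tfap2d-low column of mouse 1452. The part of these tissues in the gene differences was not tested.

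The studies were compared with an interaction term, which the rule did not use. In edgeR 0 of 25498 genes (0%) differed in their difference between the sides from 16 h to 24 h in 14 mice, with 1927 at an unadjusted p under 0.05, and DESeq2 called 0. In the 9 mice edgeR called 0, with 312 at an unadjusted p under 0.05. Among the genes with the smallest p in the 9 mice were Efna2 (difference 0.96 ± 0.24 on the log2 scale, edgeR adjusted p = 1.00), Trhr, Glp1r and Dmbx1. The Glp1r difference was -3.08 ± 1.48 in 4 mice of 16 h and -1.77 ± 0.45 in 5 mice of 24 h (mean of log2(CPM + 0.5), SD). Between right and left, in 3 and 3 mice of 16 h, edgeR called 0 of 24233 genes (0%), with 913 at an unadjusted p under 0.05. DESeq2 called 10. Tmem212, Nxph4, Lama1 and Stac were among the genes with the smallest p in edgeR (adjusted p = 0.978 for each). A p above the threshold in so few mice does not show that the differences were equal.

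The same rule gave pairs of columns in 18 fasted and HFD mice, which the chow fits did not use, with sides again set by Tfap2d. There 785 of 25453 genes were called higher in Tfap2d-high columns (3.08%) and 1355 lower (5.32%). Of the 332 genes called in 14 chow mice 253 were called there with the same sign, which is 76.2% of the chow calls and 11.8% of the 2140 calls in the 18 mice, and 0 with the opposite sign. Of the 2112 genes called in the 9 chow mice 1122 were called the same way, which is 53.1% of those calls and 52.4% of the calls in the 18 mice. Foxp2 was higher in 18 of 18 mice (1.33, edgeR adjusted p = 5.02e-05), Tcf7l2 in 18 of 18 (2.18, edgeR adjusted p = 1.93e-05) and Npy in 18 of 18 (2.03, edgeR adjusted p = 2.31e-06). Glp1r was at -3.65 (edgeR adjusted p = 0.000183) and Npy2r at -2.52 (edgeR adjusted p = 8.81e-05). Gabra6 was at 0.35 (edgeR adjusted p = 0.953), higher in 10 of 18 mice.

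Because the sides were set by an AP-2 factor, the letters of its known motif, GCCNNNGGC, were counted in RefSeq promoters (GRCm38.p6) of 300 bases, from 250 before to 50 after the gene start. This motif reads the same on both strands. It was in 22.9% of promoters of all genes tested in 14 mice that have an entry. Of genes called in 14 mice, 22.6% of the promoters of those higher and 17.9% of those lower held it, and of genes called in the 9 mice 25.3% and 22.2%. For the calls in the 9 mice the promoters of 606 of 1019 and 717 of 1092 genes were found. The 250 bases before the start of a gene from each direction are shown, with the motif in capitals, for Irx2 (13, 72628570 to 72628819, plus strand) and Glp1r (17, 30901617 to 30901866, plus strand). They were chosen after the values had been seen, as examples with 1 match each.
Irx2: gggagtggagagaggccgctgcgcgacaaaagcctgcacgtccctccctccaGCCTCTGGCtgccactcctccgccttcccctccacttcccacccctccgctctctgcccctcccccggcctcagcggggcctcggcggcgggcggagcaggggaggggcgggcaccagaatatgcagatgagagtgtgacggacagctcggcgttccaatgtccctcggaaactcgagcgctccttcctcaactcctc
Glp1r: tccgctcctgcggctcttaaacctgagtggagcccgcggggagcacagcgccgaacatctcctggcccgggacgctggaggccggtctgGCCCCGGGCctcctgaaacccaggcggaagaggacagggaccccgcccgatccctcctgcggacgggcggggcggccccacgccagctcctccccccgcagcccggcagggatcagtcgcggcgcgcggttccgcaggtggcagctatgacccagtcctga
A match describes the letters only, and the differences between these shares were not tested.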

How the data were processed

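The authors sequenced rRNA-depleted libraries, made base calls with bcl2fastq 2.20.0, aligned reads to GRCm39 and counted them per gene with STAR 2.7.3a, and deposited raw counts per Ensembl gene (57010 genes) without normalization. The strand setting of the counts is not given in the sources used here, so reads of a gene and an overlapping antisense gene cannot be told apart. Columns were assigned to mice by heading and to sides by the rule in the text. Genes were fitted with edgeR 4.0.16 (R 4.3.3: filterByExpr, TMM, estimateDisp, glmQLFit, glmQLFTest, mouse as block, Benjamini-Hochberg over all genes without the 3 rule genes). Pairing comes from the mouse. SE is the absolute log2 fold change divided by the root of F. Alternatives used DESeq2 1.42.0, other size factors, filters and mice. On counts simulated for 14 mice the fit was tested with known fold changes. Sign-flip tests used Python 3.11.15 with numpy 2.4.6 and pandas 2.3.3. The members and gene lists were chosen with earlier results of these data known. Named genes follow the rule in the text, plus up to 4 called members per list and 5 genes per interaction. Symbols and coordinates are from GENCODE vM39 (56310 genes matched), promoters from RefSeq. The authors' table of libraries was used only through the labels. P-values measure the spread between mice. Depth limits low genes most. Results of a few genes chosen by these rules are not reported here.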

Additional observations from a re-analysis of the deposited data

Results flagged for a closer look

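In groups of 4 to 8 mice the sample farthest from the others was marked where its gap to the next, divided by the range, passed Dixon's 95% limit. Of 110 groups tested 8 were marked, and chance marks about 1 in 20. In the 16 h study the Tfap2d-low column of mouse 4 held 30325505 counts beside a median of 16750775. Mouse 6 had the largest log2 differences of Drd2 (5.04), Foxp2 (3.54) and Scg2 (3.59) at 16 h, beside medians of 1.38, 1.16 and 0.99, and its Tfap2d-low column is the one with 7473 CPM of granule cell markers. At 24 h mouse 1422 had a log2 difference of Irx2 of 4.40, beside a median of 1.15. Among the 9 mice, mouse 3 stood apart at 16 h in Gabra6 (4.49, median 0.35), and its 2 columns were the closest of the 9 mice in Tfap2d. Mouse 1441 stood apart at 24 h in Mcub (0.20, median 2.17) and Crhr2 (0.53, median 1.63).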

How the results depend on the processing

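Counts of called genes are given in the order higher, lower, at least 2-fold higher and at least 2-fold lower in Tfap2d-high columns. Beside 332 calls in 14 mice, of which the shares in each direction are given above, DESeq2 gave 759, 606, 362 and 315. Without the replicate block for the mouse and with study as covariate, 363, 558, 145 and 254 were called. The 16 h mice alone gave 0 of each in edgeR, with 1055 genes at an unadjusted p under 0.05. Of the 9 mice, the 4 of 16 h gave 389 calls and the 5 of 24 h gave 197, beside 2112 for the 9. A gap of at least 1 to the third column left 35, 27, 22 and 17, and at least 5000000 counts per column 64, 37, 42 and 25. Without the 5 mice with a collicular library labelled as failing there were 1020, 1092, 245 and 332. In analyses added after the data had been seen, there were 684, 754, 261 and 324 without mice 1, 6 and 1422, and 55, 48, 34 and 33 without mice 1442 and 1452. Leaving out each mouse gave 58 to 393, 49 to 331, 38 to 212 and 32 to 211. In the 9 mice leaving out each gave 595 to 1148 higher and 652 to 1179 lower. RLE size factors, no filter on low counts, the 24 h mice alone and the removal of mitochondrial genes kept each count within 1.5 times. The cause of these changes was not tested.

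The count for the study interaction was 0 in each alternative run, and for left against right DESeq2 gave 10. Of 332 chow calls 76.2% were called the same way in the 18 mice, and 47% in fasted mice alone. Of 686 alternative values of the named genes 516 kept direction and side of the threshold, 93 lost the call, 76 gained it and 1 changed sign, Gabra6 at -1.14 with the 16 h mice alone. Genes detected differed by 590 in 14 mice and by -241 in the 9, and RNA concentration by -4.72 ng/µl in 14 mice, 2.7 in the 9, -13.9 at 16 h and 2.19 at 24 h. None of these passed the threshold.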
